A study of Mus musculus with 12 samples.

Results

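The COP9 signalosome (CSN) is a protein complex of the nucleus and cytoplasm that removes the ubiquitin-like protein NEDD8 from cullins, the scaffolds of the cullin-RING ubiquitin ligases. Cullins are switched on by the attachment of NEDD8 and off by its removal, so the complex sets how long such a ligase stays active against its substrates. CSN5 carries the catalytic metalloprotease site and pairs with CSN6, which has the same fold without catalytic activity. The other large subunits (CSN1, CSN2, CSN3, CSN4, CSN7 and CSN8) share a scaffold fold with the lid of the proteasome and with translation initiation factor eIF3. The transcripts described here are the 9 genes with the names Gps1 (CSN1), Cops2, Cops3, Cops4, Cops5, Cops6, Cops7a, Cops7b and Cops8, taken by gene name from a table of 53465 genes. All 9 were found, and all 9 passed the filter on low counts in each comparison. The small additional subunit Cops9 is not among them and is given separately.

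RNA-seq was performed on LSKs (Lin- Sca-1+ c-Kit+ cells, the bone marrow fraction that holds hematopoietic stem cells and early progenitors) to ask how loss of Tespa1 changes their response to 5-fluorouracil (5-FU), a drug that kills cycling cells. There were 12 libraries in 4 groups of 3: untreated Tespa1+/+, untreated Tespa1-/-, and both genotypes at day 9 after a single intraperitoneal injection of 5-FU. Mice were 8 to 10 weeks old and male. The Tespa1-/- mice carry the B6.129S-Tespa1 tm1Smoc allele, backcrossed to C57BL/6 for more than 6 generations, and Tespa1+/+ mice were, per the labels, wild-type littermates. The allele is a germline deletion, so the gene is also lost in all other cells of these mice. The study's interest in the complex is CSN6, which it examined as protein and, by qPCR, as transcript, and the values here are transcript levels from RNA-seq.

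Each library held between 22118154 and 28275079 counts (median 23401715). Tespa1 itself was at 49.8, 43.0 and 46.5 CPM (counts scaled to a common library size, here with TMM factors) in untreated Tespa1+/+ libraries and at 34.5, 35.0 and 34.9 CPM in untreated Tespa1-/- libraries. After 5-FU it was at 47.2, 55.1 and 57.5 CPM in Tespa1+/+ and at 20.8, 19.8 and 17.3 CPM in Tespa1-/-. The gene was thus lower in every Tespa1-/- library but not absent, and the gene counts do not show which exons the remaining reads came from. The untreated Tespa1-/- libraries listed a count for 27219 to 29523 genes, against 21141 to 24745 in untreated Tespa1+/+. Marker genes differed between the untreated genotypes too. The 9 LSK markers summed to 1569 to 1635 CPM in untreated Tespa1+/+ and to 1314 to 1358 CPM in untreated Tespa1-/-, with 3 of 9 lower by test, and the 7 B cell markers to 321 to 333 and 238 to 249 CPM, with 4 of 6 tested lower. The 5 megakaryocyte markers summed to 32.4 to 37.2 and 61.2 to 63.5 CPM with 1 of 4 tested higher, and the 6 macrophage markers to 77.1 to 87.6 and 104 to 108 CPM with 1 of 5 tested higher. The neutrophil markers summed to 19.7 to 33.4 and 34.9 to 36.8 CPM, with 0 of 5 tested past the threshold by edgeR (3 at an unadjusted p below 0.05), and their median log2 difference was 1.69. The erythroid sums overlapped (146 to 172 and 163 to 174 CPM), but 1 of 9 tested erythroid markers was higher, 2 had an unadjusted p below 0.05, and their median log2 difference was 0.98. The T cell sums overlapped, with 0 of 2 tested past the threshold by edgeR (0 at an unadjusted p below 0.05). After 5-FU the Tespa1-/- libraries also held more RNA of neutrophil and erythroid marker genes than the Tespa1+/+ libraries. Which stage of cell this RNA came from was not tested. The 12 neutrophil markers summed to 1126 to 1136 CPM against 31.9 to 44.4 CPM in Tespa1+/+ after 5-FU, where Fcnb, Cd177 and Retnlg were at 0 counts in all 3 libraries. The 10 erythroid markers summed to 682 to 719 CPM against 244 to 268 CPM. The 9 LSK markers were all detected in each group and summed to 781 to 846 CPM against 1294 to 1337 CPM. In the test between genotypes after 5-FU, 11 of 12 neutrophil markers and 10 of 10 erythroid markers were higher and 6 of 9 LSK markers were lower. The megakaryocyte markers summed to 108 to 123 CPM in Tespa1+/+ and 164 to 170 CPM in Tespa1-/- after 5-FU, with 1 of 5 higher, and the macrophage markers to 62.9 to 65.8 and 68.2 to 90.2 CPM, with 0 of 6 past the threshold by edgeR (3 at an unadjusted p below 0.05). The B cell sums (455 to 483 and 483 to 504 CPM) and T cell sums overlapped, with 1 of 7 and 1 of 5 markers higher. In such bulk libraries, fewer cells of a type and less RNA per cell cannot be told apart. What part these differences have in the values below was not tested.

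All 9 genes lie at the positions of GENCODE M21 on GRCm38. Cops6 (ENSMUSG00000019494) spans chr5:138161071-138164646 on the plus strand and is the shortest of them with 3576 bases. Cops2 (ENSMUSG00000027206) spans chr2:125830304-125859139 on the minus strand. Cops4 (ENSMUSG00000035297) spans chr5:100518309-100547803 on the plus strand and is the longest with 29495 bases. Cops5 (ENSMUSG00000025917) lies at chr1:10024601-10038168 and Cops7a (ENSMUSG00000030127) at chr6:124958413-124965538, both on the minus strand. Cops7b (ENSMUSG00000026240) lies at chr1:86582904-86609375 and Cops8 (ENSMUSG00000034432) at chr1:90602981-90613341, both on the plus strand. Cops3 (ENSMUSG00000019373) lies at chr11:59817795-59839838 on the minus strand and Gps1 (ENSMUSG00000025156) at chr11:120784272-120789102 on the plus strand. Some of these genes overlap a gene on the opposite strand. Cops6 shares 64 bases with Mcm7, a subunit of the replicative helicase that was at 250 to 293 CPM as a group mean, well above Cops6 itself. Cops2 shares 31 bases with Galk2, Cops3 shares 697 with Gm16062 and a shorter stretch with Nt5m, Cops5 shares 182 with Cspp1, and Cops7a shares 103 with Gm23851. The library kit keeps strand, but whether the counting used it is not given in the sources used here, so reads in the shared bases may belong to either gene.

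Sequences are shown for the primer pair with which the study measured Cops6 by qPCR and for the promoters of the genes on which the comparisons below turn. The primers mark the piece of the Cops6 transcript that the study followed. The forward primer matches exon 2 (chr5:138161395-138161415) and the reverse primer spans the junction of exon 2 and exon 3 (chr5:138161489-138161497 and chr5:138161674-138161685), all inside the coding sequence. The product of 115 bases is present in 4 of 5 annotated Cops6 transcripts and in those of no other gene. Primers are written 5′ to 3′, the reverse primer as ordered.
Cops6 forward: ggagtgactgggagtgtttcc
Cops6 reverse: gagccccaatcacctgcatag

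RefSeq promoters (GRCm38.p6, 250 bases before to 50 after a start site, 300 bases in all) were given for 8 of the 9 genes. No window was given for Cops5. The windows of Cops6 (plus strand, chr5:138160852-138161151), Cops2 (minus strand, chr2:125859033-125859332) and Cops4 (plus strand, chr5:100518059-100518358) follow, with motif matches in capitals.
Cops6 promoter: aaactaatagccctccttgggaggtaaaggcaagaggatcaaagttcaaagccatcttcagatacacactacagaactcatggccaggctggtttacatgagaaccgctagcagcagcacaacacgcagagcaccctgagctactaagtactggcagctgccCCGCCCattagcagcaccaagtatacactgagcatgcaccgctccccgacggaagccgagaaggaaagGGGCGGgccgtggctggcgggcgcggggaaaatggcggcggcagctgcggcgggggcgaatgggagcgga
Cops2 promoter: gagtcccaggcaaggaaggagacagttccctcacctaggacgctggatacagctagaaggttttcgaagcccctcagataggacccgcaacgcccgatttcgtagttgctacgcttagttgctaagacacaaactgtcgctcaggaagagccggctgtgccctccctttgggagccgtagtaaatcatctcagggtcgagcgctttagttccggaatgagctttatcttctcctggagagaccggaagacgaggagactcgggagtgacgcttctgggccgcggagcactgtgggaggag
Cops4 promoter: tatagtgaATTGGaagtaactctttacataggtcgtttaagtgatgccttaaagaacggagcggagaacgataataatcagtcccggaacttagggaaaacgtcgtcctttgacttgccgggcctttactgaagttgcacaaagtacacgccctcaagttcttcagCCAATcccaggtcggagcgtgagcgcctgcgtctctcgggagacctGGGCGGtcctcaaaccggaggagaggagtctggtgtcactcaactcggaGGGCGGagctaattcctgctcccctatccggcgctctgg
The capitals mark the GC box (GGGCGG) in Cops6 and Cops4 and the CCAAT box (CCAAT) in Cops4, each searched on both strands. The GC box was found in windows of 5 of the 8 genes (Gps1, Cops4, Cops6, Cops7a and Cops8) and in 35.7% of 32851 promoter windows of the mouse genome. A gene was counted if any of its windows held the motif, and Gps1 and Cops7a had more windows than the others. Counts of genes and shares of windows are thus not like measures. The CCAAT box was found in Cops4 among the 8 and in 37.4% of all windows. The E-box CACGTG, the core sequence bound by MYC with its partner MAX, was found in Cops7a and Cops8, against 7.15% of all windows. The ETS motif CCGGAAGT was found in Cops3 and in 3.89% of all windows. None of these letters, nor those of the CRE motif TGACGTCA that no window of the 8 genes held, occur in the Cops2 window. A match describes the letters in a window and says nothing of binding.

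The 9 transcripts were abundant to unequal degrees in LSKs. On the deposited FPKM scale, over the 12 libraries, Cops3 stood first with a mean of 14.8 ± 1.42 (SD), followed by Cops2 with 13.0 ± 1.32 and Cops4 with 12.3 ± 1.70. Cops7a, one of a pair of alternative CSN7 subunits, stood at 10.2 ± 0.627 and Cops6 at 10.1 ± 0.870. The catalytic subunit Cops5 stood at 6.15 ± 0.370, Gps1 at 3.72 ± 0.482, Cops8 at 3.08 ± 0.609 and Cops7b at 1.15 ± 0.193. The highest and the lowest of these means differed 12.9-fold. Neighbours in this order overlapped in range from Cops3 down to Cops6, as did Gps1 and Cops8, whereas Cops6 was above Cops5, Cops5 above Gps1 and Cops8 above Cops7b in all 12 libraries without overlap.

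This order depends in part on the gene length behind the FPKM. The length implied by count and FPKM equalled, within 2% for 9 of the 9 genes and for 89.4% of the 8522 genes that had 200 or more counts per library throughout, the sum of all distinct annotated exons, in which overlapping exon versions are each counted. It was a median of 1.31 times the union of exons over those genes, and among the CSN genes from 1.25 times for Cops4 to 2.003 times for Cops7b. With CPM per kilobase of the union of exons, Cops2 at 20.3 and Cops3 at 20.03 stood first, followed by Cops6 at 17.2, Cops4 at 15.4, Cops7a at 14.4 and Cops5 at 9.28. With the longest transcript as length, Cops3 at 33.9 and Cops4 at 32.3 stood first and Cops6 at 24.3 was the third. Under all 3 lengths Cops5 was the sixth, Gps1 the seventh, Cops8 the eighth and Cops7b the last. Among the leading 5 genes the order was thus set by the length used and by differences within the spread of libraries. The 2 other lengths were added after the data had been seen.

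**Figure D1:**
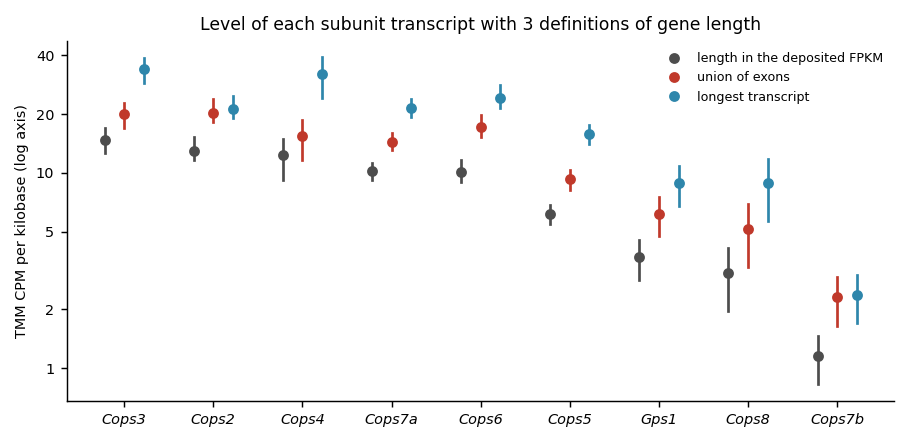
Level of each CSN transcript in TMM CPM per kilobase (log axis), with the length in the deposited FPKM (grey), the union of exons (red) and the longest annotated transcript (blue). Points are means over the 12 libraries and lines run from the lowest to the highest library, and Cops5, Gps1, Cops8 and Cops7b keep places 6 to 9 under each length.

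Across all 12 libraries 7 of the 9 CSN transcripts varied less than the median gene. The coefficient of variation of CPM was 6.07% for Cops5, 6.23% for Cops7a and 8.35% for Cops6, against a median of 14.8% over 9435 genes with a mean of at least 10 CPM. Of those genes 4.21% varied less than Cops5, 4.65% less than Cops7a and 14.0% less than Cops6. Cops2, Cops3, Gps1 and Cops4 varied by 10.3%, 10.4%, 13.6% and 14.2%. Cops7b and Cops8 varied more than the median gene, by 16.9% and 19.97%. The counts behind these values were lowest for Cops7b (205 to 440 per library) and highest for Cops4 (1287 to 2536 per library).

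**Figure D2:**
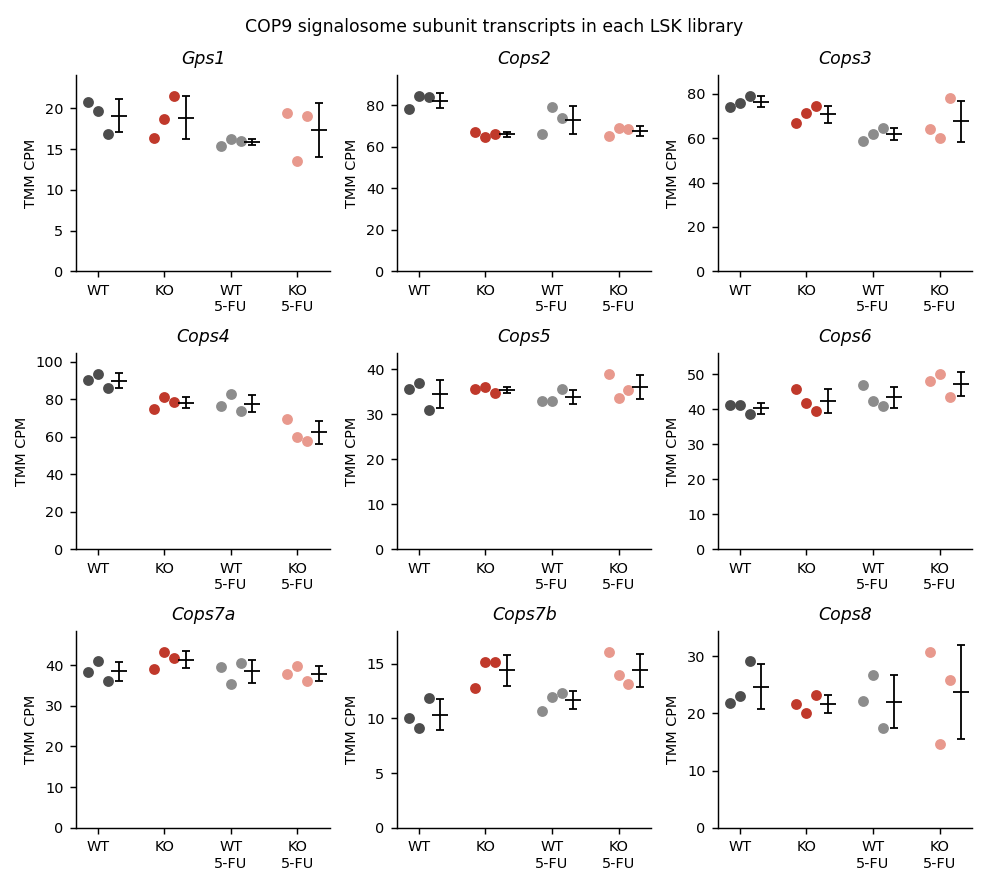
TMM CPM of each CSN transcript in the 12 LSK libraries, by group (WT, Tespa1+/+; KO, Tespa1-/-; 3 libraries each), with each axis starting at 0. Dots are libraries and the black marks are group means with SD (n = 3), and the Cops2 dots of untreated KO lie below those of untreated WT while the Cops6 dots overlap between genotypes in both treatments.

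Cops6, the subunit for which the study proposed a role, was not called between genotypes at the transcript level. It was at 41.2, 41.2 and 38.6 CPM in untreated Tespa1+/+ libraries and at 45.9, 41.8 and 39.4 CPM in untreated Tespa1-/- libraries. After 5-FU it was at 46.9, 42.4 and 40.9 CPM in Tespa1+/+ and at 48.0, 50.2 and 43.6 CPM in Tespa1-/-. The genotypes overlapped in both treatments. The log2 fold change of Tespa1-/- against Tespa1+/+ was 0.07 (95% interval -0.14 to 0.28, adjusted p = 0.743) without treatment and 0.12 (-0.11 to 0.35, adjusted p = 0.513) after 5-FU, by the quasi-likelihood test of edgeR, with Benjamini-Hochberg adjustment of p across the tested genes. As folds, these intervals ran from 0.91 to 1.21 and from 0.93 to 1.27, so that a change of 1.5-fold in either direction lay outside both. The change with 5-FU was 0.11 (-0.12 to 0.33) in Tespa1+/+ and 0.15 (-0.06 to 0.36) in Tespa1-/-, and the difference between those changes was 0.05 (-0.23 to 0.33, adjusted p = 0.887, edgeR). Mcm7, which overlaps Cops6 and was named after its values were seen for that reason, had fitted genotype differences of -0.13 and 0.03 on the log2 scale, without and after 5-FU, neither past the threshold.

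Cops5 encodes the catalytic partner of CSN6. Its level was 34.5 ± 3.196 CPM in untreated Tespa1+/+ and 35.4 ± 0.665 CPM in untreated Tespa1-/-, and 33.9 ± 1.59 and 36.0 ± 2.71 CPM after 5-FU (SD, n = 3). The groups overlapped in all 4 comparisons. The fitted genotype differences were 0.04 (-0.19 to 0.26) and 0.09 (-0.15 to 0.33) on the log2 scale. The ratio of Cops6 to Cops5 on the FPKM scale ran from 1.47 to 1.65 in untreated Tespa1+/+, from 1.497 to 1.71 in untreated Tespa1-/-, from 1.51 to 1.88 in Tespa1+/+ after 5-FU and from 1.62 to 1.97 in Tespa1-/- after 5-FU, with overlap between genotypes in both treatments.

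Between genotypes in untreated LSKs, 1 of the 9 CSN genes passed an adjusted p below 0.05, Cops2, which was lower in Tespa1-/-. In this comparison 5.23% of 17055 genes passed, 1.64% higher and 3.59% lower in Tespa1-/-. Cops2 encodes the subunit that contacts the cullin when the complex binds its substrate. It was at 78.0, 84.5 and 83.8 CPM in Tespa1+/+ and at 67.1, 64.5 and 66.1 CPM in Tespa1-/-. All 3 Tespa1-/- libraries lay below all 3 Tespa1+/+ libraries, and the group means differed by more than the spread within either group. The log2 fold change was -0.32 ± 0.07 (SE; 95% interval -0.47 to -0.17, adjusted p = 0.0308, edgeR), that is 0.80-fold. After 5-FU the same gene was at 65.9, 79.0 and 73.8 CPM in Tespa1+/+ and at 64.9, 69.0 and 68.5 CPM in Tespa1-/-. There the groups overlapped and the fitted difference was -0.11 (-0.31 to 0.08). The difference between the 2 genotype effects was 0.21 (-0.02 to 0.43, adjusted p = 0.331), so it was not shown that the effect differed with treatment. The LSK, B cell, neutrophil, macrophage and megakaryocyte marker sums, 1 erythroid marker and the number of genes with a count differed between the same libraries, as given above, and their part in the Cops2 value was not tested. The untreated call was lost with the replicate number as a block (adjusted p = 0.0943) and when any library but replicate 1 of Tespa1+/+ was left out, with adjusted p from 0.0385 to 0.151.

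Cops7b and Cops4 were the other genes whose untreated groups did not overlap. Of all genes tested, 25.5% did not overlap between these groups, against 3 of the 9 CSN genes. Cops7b was at 10.1, 9.11 and 11.9 CPM in untreated Tespa1+/+ and at 12.8, 15.2 and 15.2 CPM in untreated Tespa1-/-, with a fitted difference of 0.48 (0.10 to 0.85, adjusted p = 0.158, edgeR). Cops4 was at 90.5, 93.7 and 86.1 CPM against 75.0, 81.1 and 78.8 CPM, with a fitted difference of -0.20 (-0.35 to -0.05, adjusted p = 0.144, edgeR). Neither passed after adjustment. Together with Cops2 they were the 3 CSN genes with an unadjusted p below 0.05, a limit that 18.5% of all genes tested met. The fitted differences of Gps1, Cops3, Cops7a and Cops8 were -0.02, -0.11, 0.10 and -0.19, and each 95% interval included 0.

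After 5-FU, 0 of the 9 CSN genes passed an adjusted p below 0.05 between genotypes by edgeR, in a comparison in which 13.1% of 17239 genes passed, 7.34% higher and 5.78% lower in Tespa1-/-. At an unadjusted p below 0.05, which 26.7% of genes met, there was 1, Cops4, and by DESeq2 with adjustment there was also 1, again Cops4. Cops4 encodes a scaffold subunit that touches CSN6 in the assembled complex. It was at 76.6, 83.0 and 73.8 CPM in Tespa1+/+ and at 69.5, 59.9 and 58.1 CPM in Tespa1-/-. The Tespa1-/- libraries all lay below the Tespa1+/+ libraries, with a fitted difference of -0.32 ± 0.09 (95% interval -0.53 to -0.11, adjusted p = 0.0544, edgeR). The adjusted p was 0.0178 by DESeq2, and between 0.0172 and 0.0901 over the 7 fits on all libraries under other settings. Left-out libraries gave adjusted p from 0.0370 to 0.174, below 0.05 only without replicate 1 of Tespa1-/-. Cops7b was the other gene without overlap after 5-FU, at 10.7, 11.99 and 12.4 CPM against 16.1, 14.0 and 13.1 CPM, and its fitted difference was 0.30 (-0.07 to 0.67, adjusted p = 0.293, edgeR). Of all genes tested, 33.1% did not overlap between these groups. The fitted differences of the other scaffold genes were 0.13 for Gps1, 0.13 for Cops3, -0.03 for Cops7a and 0.10 for Cops8, the last with a wide interval of -0.49 to 0.69.

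With 5-FU in Tespa1+/+ LSKs, 0 of the 9 CSN genes passed by edgeR, against 7.95% of 17002 genes (3.77% higher and 4.18% lower after 5-FU). There were 2 with an unadjusted p below 0.05, Cops3 and Cops4, a limit that 21.5% of genes met, and DESeq2 called 1, Cops3. Cops3 encodes a scaffold subunit of the complex. It was at 74.3, 76.1 and 79.2 CPM in untreated libraries and at 58.9, 62.1 and 64.4 CPM after 5-FU. The treated libraries lay below the untreated ones, with a fitted change of -0.31 ± 0.08 (95% interval -0.49 to -0.12, adjusted p = 0.0520, edgeR, and 0.0165 with DESeq2). Gps1 was without overlap too, at 20.8, 19.7 and 16.8 CPM untreated and at 15.4, 16.2 and 16.0 CPM after 5-FU, with a fitted change of -0.27 (-0.60 to 0.07). These and Cops4 (-0.21, -0.39 to -0.03) were the 3 genes without overlap, all lower after 5-FU, where 28.7% of all genes tested did not overlap. Between the same libraries the B cell markers went from 321–333 to 455–483 CPM after 5-FU (5 of 6 tested higher, 1 lower), the megakaryocyte markers from 32.4–37.2 to 108–123 CPM (3 of 4 higher) and the erythroid markers from 146–172 to 244–268 CPM (4 of 8 higher). The LSK markers went from 1569–1635 to 1294–1337 CPM in sum, with the abundant Flt3 and Cd34 lower and Slamf1 and Mecom higher, while 7 of the 9 had a positive fitted change, 8 had an unadjusted p below 0.05 and the median log2 change was 0.54. The macrophage markers went from 77.1–87.6 to 62.9–65.8 CPM (0 of 5 past the threshold by edgeR, 2 at an unadjusted p below 0.05) and the T cell markers from 34.5–39.95 to 19.1–21.9 CPM (1 of 2 lower), while the neutrophil sums overlapped (1 of 6 higher). The part of these shifts in the values of Cops3, Cops4 and Gps1 was not tested.

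With 5-FU in Tespa1-/- LSKs, 1 of the 9 CSN genes passed, against 19.4% of 17228 genes (10.7% higher and 8.64% lower after 5-FU). This was Cops4, also the 1 gene with an unadjusted p below 0.05 (32.3% of all genes), from 75.0, 81.1 and 78.8 CPM untreated to 69.5, 59.9 and 58.1 CPM after 5-FU. The groups did not overlap, as for 38.6% of all genes tested, and no other CSN gene was without overlap. Cops4 fell by 0.34 ± 0.08 on the log2 scale (95% interval of the change -0.52 to -0.15, adjusted p = 0.0202, edgeR). The adjusted p ran from 0.00802 to 0.0830 with 1 library left out, and was above 0.05 without replicate 2 or 3 of either group. Between the same libraries 12 of 12 neutrophil, 10 of 10 erythroid, 5 of 7 B cell and 4 of 4 tested megakaryocyte markers were higher after 5-FU, and of the 9 LSK markers 3 were higher and 3 lower. Of the macrophage markers 2 of 6 were higher and 1 lower, and of the T cell markers 1 of 5 was higher and 2 lower. The B cell sums went from 238–249 to 483–504 CPM, the megakaryocyte sums from 61.2–63.5 to 164–170 CPM and the LSK sums from 1314–1358 to 781–846 CPM. The part of these shifts in the Cops4 value was not tested. Cops3 had a fitted change of -0.08 (-0.31 to 0.15) here, with 78.2 CPM in 1 library after 5-FU and 64.3 and 60.3 CPM in the others.

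The interaction test over the 12 libraries, of whether the change with 5-FU differed between the 2 genotypes, called no CSN gene. Of the 9 genes, 0 passed by edgeR, 0 had an unadjusted p below 0.05 and 0 passed by DESeq2. Of all 18696 genes, 5.01% passed by edgeR (3.02% with a positive and 1.99% with a negative difference) and 18.7% had an unadjusted p below 0.05. The fitted differences of the changes ran from -0.17 for Cops7b to 0.30 for Cops8. The narrowest interval was that of Cops2 given above, and the widest that of Cops8, -0.41 to 1.01, so that a difference of that size could not be told from 0 at this depth and replicate number. None of the 9 genes met the study's own thresholds, a fold change above 1.5 with an unadjusted P below 0.05, in any of these comparisons, where 6.74% of genes met them between untreated genotypes, 11.7% between genotypes after 5-FU, 9.88% with 5-FU in Tespa1+/+, 14.4% with 5-FU in Tespa1-/- and 10.4% in the interaction.

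**Figure D3:**
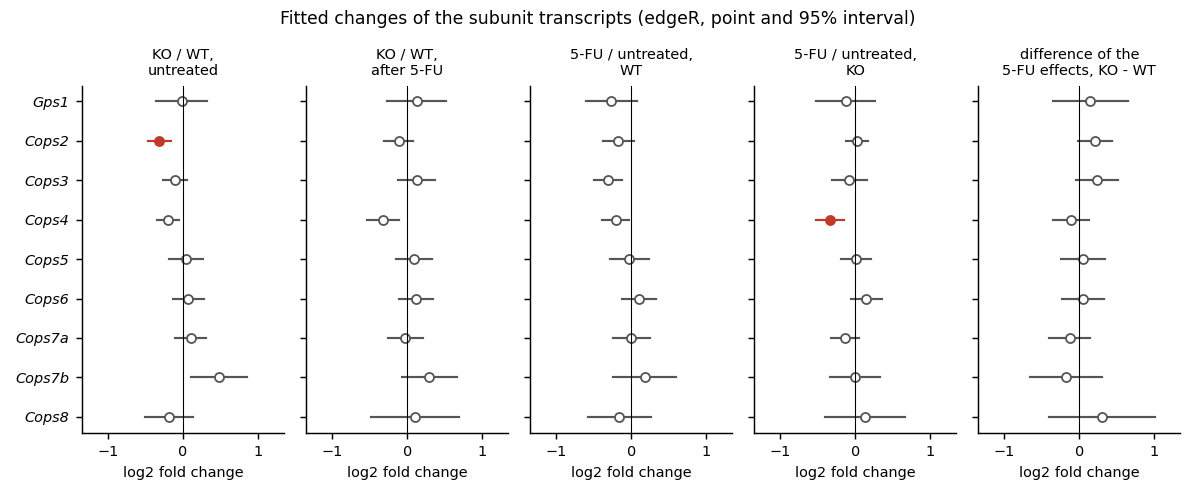
Fitted log2 fold changes of the 9 CSN transcripts in the 4 comparisons and the difference of the 5-FU effects (WT, Tespa1+/+; KO, Tespa1-/-). Points are edgeR estimates, lines 95% intervals and filled red points have an adjusted p below 0.05, which holds for Cops2 between untreated genotypes and for Cops4 with 5-FU in KO.

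The CSN7 subunit is made by either of a pair of paralogs, Cops7a or Cops7b, and only one occupies a given complex. Cops7a was at 38.5 ± 2.40 and 41.4 ± 2.16 CPM in untreated Tespa1+/+ and Tespa1-/- and at 38.5 ± 2.79 and 37.9 ± 1.84 CPM after 5-FU (SD, n = 3), with overlap in all 4 comparisons. On the FPKM scale the ratio of Cops7a to Cops7b was 10.9, 13.0 and 8.78 in untreated Tespa1+/+ and 8.78, 8.19 and 7.92 in untreated Tespa1-/-. The groups did not overlap, but the nearest libraries, at 8.782 and 8.776, were almost equal. After 5-FU the ratio was 10.6, 8.48 and 9.46 in Tespa1+/+ and 6.78, 8.17 and 7.89 in Tespa1-/-, again without overlap. Two-sided exact permutation tests gave p = 0.1 for both genotype comparisons, the smallest that 3 against 3 allows, and 0.2 for each after Benjamini-Hochberg adjustment over the 4 ratio tests. For 5-FU the exact p was 0.4 in Tespa1+/+ and 0.2 in Tespa1-/- (adjusted 0.4 and 0.267). Per kilobase of the union of exons the ratio ran from 4.79 to 9.16 over the 12 libraries, in place of 6.78 to 13.0.

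**Figure D4:**
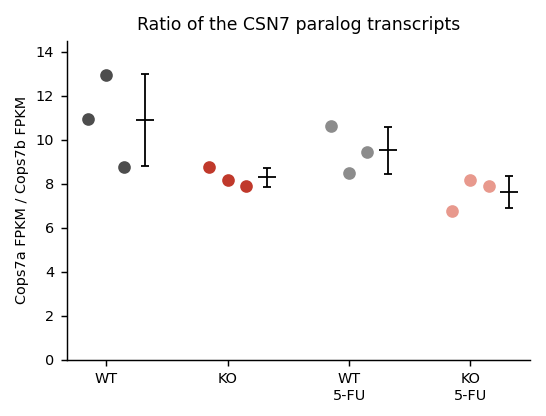
Ratio of Cops7a to Cops7b FPKM in each library, by group (WT, Tespa1+/+; KO, Tespa1-/-; 3 libraries each). Dots are libraries and black marks are means with SD, and the KO libraries lie below the WT libraries in each treatment, by a margin that is close to nil without treatment.

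Summed over the 9 genes, the CSN transcripts came to 410, 426 and 413 CPM in untreated Tespa1+/+ and to 380, 391.7 and 395 CPM in untreated Tespa1-/-. After 5-FU the sums were 369, 390 and 375 CPM in Tespa1+/+ and 390, 355 and 378 CPM in Tespa1-/-. The untreated Tespa1+/+ libraries were the highest of the 12, and the genotypes overlapped after 5-FU. Within the summed FPKM, Cops6 took 11.5% to 12.2% in untreated Tespa1+/+, 12.1% to 14.6% in untreated Tespa1-/-, 13.2% to 15.4% in Tespa1+/+ after 5-FU and 13.9% to 16.9% in Tespa1-/- after 5-FU. Cops4 took 17.6% to 18.4% in untreated Tespa1+/+, 16.4% to 17.2% in untreated Tespa1-/-, 16.3% to 18.0% in Tespa1+/+ after 5-FU and 12.7% to 14.95% in Tespa1-/- after 5-FU. Such shares move with the other genes of the sum as well as with the gene itself.

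The patterns of the CSN genes over the 12 libraries were compared by the root mean square difference of log2(CPM + 1) centred on each gene's mean, a measure in which small values mean like patterns. The closest pair was Cops5 and Cops7a (0.09), followed by Cops5 and Cops6 (0.12) and by Gps1 and Cops3 (0.13). The farthest pair was Cops4 and Cops7b (0.37). By closeness to Cops6 among the 9435 genes of at least 10 CPM, Cops5 ranked 596 and Cops7a ranked 1233. The other CSN genes ranked between 4568 and 7386, at distances of 0.22 to 0.32 from Cops6, where the median of all genes was 0.22. The 5 genes closest to Cops6 were Def6, Cc2d1b, Slc9a3r1, Ssr1 and Snx13 (0.06 to 0.07), and those closest to Cops5 were Stat6, Ctdsp1, Srsf4, Mphosph8 and Dnajc2 (0.05 to 0.06). Since this measure favours genes that vary little, those names mark flat profiles as much as shared ones. When profiles were centred within groups, 1 of the 5 names for Cops6 remained, Snx13.

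The enzymes that attach NEDD8 and the cullins that carry it are the counterpart of the CSN. Nedd8 itself was at 48.5 ± 0.699 and 49.3 ± 0.778 CPM in untreated Tespa1+/+ and Tespa1-/- and at 48.6 ± 7.28 and 62.4 ± 3.83 CPM after 5-FU (SD, n = 3). It rose with 5-FU in Tespa1-/- by 0.33 (adjusted p = 0.0139, edgeR), the 1 gene called of 15 neddylation genes, where 19.4% of all genes passed. Its genotype difference after 5-FU was 0.36 (adjusted p = 0.0800, edgeR). The activating enzyme subunits Nae1 and Uba3, the conjugating enzyme Ube2m, the NEDD8 protease Senp8 and the ring subunit Rbx1 had fitted genotype differences after 5-FU of -0.10, -0.00, 0.17, 0.17 and 0.08, none past the threshold. For each list that follows, the shares over all genes are 5.23% past the threshold and 18.5% at an unadjusted p below 0.05 between untreated genotypes, and 13.1% past the threshold after 5-FU. Of the 15 neddylation genes, 0 passed between untreated genotypes by edgeR (2 at an unadjusted p below 0.05), and after 5-FU 0 were higher and 2 lower in Tespa1-/-, Dcun1d1 at -0.56 and Nub1 at -0.30. The latter count is near the 13.1% of all genes. Dcun1d1 promotes NEDD8 transfer to cullins and Nub1 directs NEDD8 to degradation.

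Among 15 cullins and core ligase parts, 0 passed between untreated genotypes (4 at an unadjusted p below 0.05), and after 5-FU 1 was higher and 1 lower, again near the 13.1% of all genes. Cul4a was the higher, with 86.7 ± 6.40 CPM in Tespa1+/+ and 111 ± 5.35 CPM in Tespa1-/- (log2 0.36, adjusted p = 0.0149, edgeR), and Cul9 was the lower at -0.45. Cul1 and Cul3 differed by -0.22 and -0.12 between genotypes after 5-FU, and Cand1, which exchanges the substrate receptors of cullins without NEDD8, by -0.15, none past the threshold. With 5-FU, Cul3 fell in both genotypes, by 0.28 in Tespa1+/+ and by 0.19 in Tespa1-/-, and Cand1 fell in Tespa1-/- by 0.27. In these 5-FU comparisons 1 of the 15 was lower past the threshold in Tespa1+/+ and 3 in Tespa1-/-, with 0 higher. These counts are near the 7.95% and 19.4% of all genes that passed. Of 19 substrate receptors, 18 were tested between untreated genotypes, with 1 higher and 1 lower, and all 19 after 5-FU, with 1 higher and 3 lower, against 7.34% higher and 5.78% lower over all genes after 5-FU and 1.64% and 3.59% without treatment. Ccnf, which directs Cul1 ligases to cell cycle proteins, was higher in Tespa1-/- in both, by 0.40 untreated and 0.93 after 5-FU, and Fbxo11 was lower in both, by -0.65 and -0.38. Dtl, the receptor that Cul4 ligases use at replication forks, was lower after 5-FU at -0.38.

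MYC protein is the substrate through which the study linked Tespa1 to the CSN. Myc RNA was at 142 ± 18.3 CPM in untreated Tespa1+/+ and 193 ± 14.2 CPM in untreated Tespa1-/- (log2 0.44, adjusted p = 0.0363, edgeR), and at 140 ± 20.4 and 139 ± 11.8 CPM after 5-FU (log2 -0.01, adjusted p = 0.949, edgeR; SD, n = 3). Of 15 tested ubiquitin ligases and deubiquitinases known to act on MYC, 0 were higher and 2 lower in Tespa1-/- in each treatment, against 5.23% of all genes past the threshold without treatment and 13.1% after 5-FU, the latter near the share in the list. These were the deubiquitinases Usp22 (-0.49) and Usp36 (-0.50) without treatment, and Usp22 (-0.41) and Usp28 (-0.53) after 5-FU. The ligase genes Fbxw7, Skp2 and Huwe1 had genotype differences of -0.01, 0.39 and -0.12 after 5-FU. Without treatment these were -0.07, 0.62 and -0.12, and none passed the threshold in either case. Among genes of proteins that bind the CSN or are its targets, Mdm2, Cop1 and Itpk1 had differences after 5-FU of 0.13, -0.04 and -0.41, none past the threshold. Jun was the gene that passed of 15 tested in this list (5.23% and 13.1% of all genes passed), lower in Tespa1-/- by -0.24 without treatment and -0.23 after 5-FU. Cops9 after 5-FU was at 5.91 ± 1.64 CPM in the Tespa1+/+ group and 9.50 ± 2.09 CPM in the Tespa1-/- group, which differed by 0.68 (adjusted p = 0.146, edgeR).

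The lid of the proteasome and eIF3 are the complexes built on the same folds as the CSN, and they are given beside it. After 5-FU, the median log2 difference between genotypes was 0.10 over the 9 CSN genes, 0.20 over the 9 lid genes, 0.12 over the 14 eIF3 genes and -0.01 over all 17239 genes tested. Of all genes tested in this comparison, 13.1% passed, 7.34% higher and 5.78% lower. Of the lid genes 3 were higher and 0 lower in Tespa1-/-, Sem1 by 0.54, Psmd13 by 0.42 and Psmd7 by 0.31. Psmd7, the lid counterpart of CSN6, was at 105, 125 and 123 CPM in Tespa1+/+ and at 146, 142 and 149 CPM in Tespa1-/-, without overlap. Psmd14, the lid counterpart of the catalytic CSN5, differed by 0.20 (adjusted p = 0.260, edgeR). Of the eIF3 genes 5 were higher (among them Eif3b by 0.31 and Eif3k by 0.28) and 1 lower (Eif3e at -0.27), while Eif3f and Eif3h, whose products share the fold of CSN5 and CSN6, differed by 0.12 and 0.04 and did not pass. Without treatment 0 lid and 0 eIF3 genes passed by edgeR, with 2 and 3 at an unadjusted p below 0.05, and the medians were -0.07 for the lid, -0.07 for eIF3 and -0.02 for the CSN. No test of a difference between the complexes was made. The marker genes of other cells named above differed between the same libraries.

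**Figure D5:**
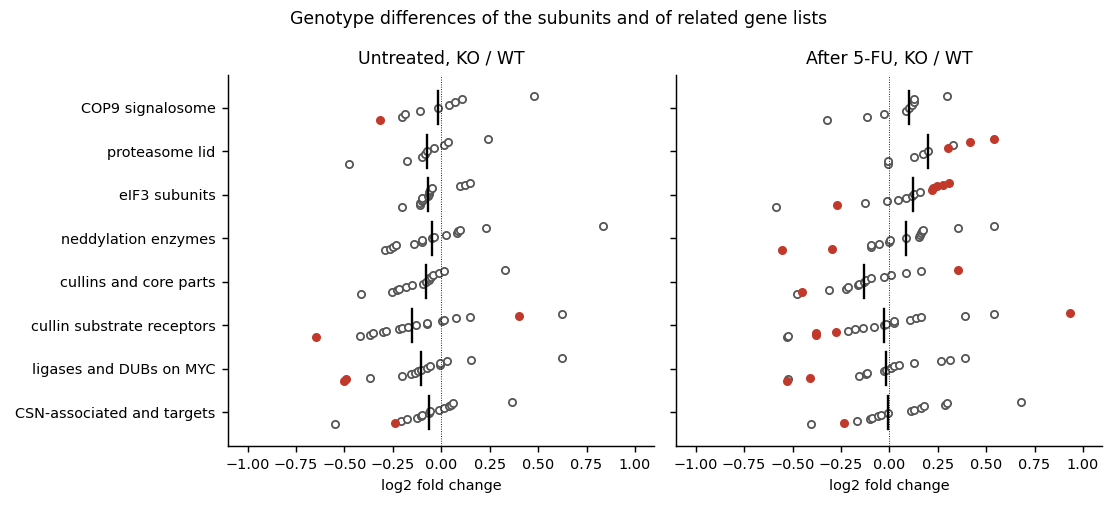
Log2 fold change of Tespa1-/- (KO) against Tespa1+/+ (WT) for the CSN genes and 7 related gene lists, without treatment (left) and after 5-FU (right). Each dot is a gene, filled red where the adjusted p is below 0.05, and the black bar is the list's median, which for the CSN is -0.02 on the left and 0.10 on the right.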

How the data were processed

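The authors deposited raw read counts per gene and FPKM for 12 libraries of LSKs sorted after lineage depletion, from stranded poly-A libraries sequenced in pairs. The submitters' processing notes name CASAVA 1.8, HISAT2, StringTie, edgeR and GRCm38, and the strand setting of the counting is not given in the sources used here. The deposited FPKM are the same counts divided by library total and a gene length.

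Groups came from the labels. The count test was that of edgeR 4.0.16 under R 4.3.3 (filterByExpr with a minimum count of 10, TMM, quasi-likelihood test, Benjamini-Hochberg adjustment) on the 6 libraries of each comparison, and on all 12 for the interaction. "Passed" means an adjusted p below 0.05. The standard error is the fold change divided by the root of F, and intervals are 95%. Nothing in the labels says whether replicates are separate mice, so p-values measure the spread between these libraries. The median chi-square over genes between replicates of a group was 2.08 to 5.87, where counting noise gives 0.455. With 3 counts, the lowest level taken as detected was 0.106 to 0.136 CPM, for counting error only. The fits were tested on simulated counts.

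Named genes were the CSN genes, Cops9, Tespa1, Myc and a set of pivotal genes of 7 lists, plus list genes among the 3 largest changes that passed in a comparison. Cul9, Nub1, Dtl, Eif3b, Eif3k, Eif3e, Psmd13 and Sem1 are named to spell out small counts. The genes and lists were chosen with earlier results of these data known. Alternatives were DESeq2 1.42.0, RLE factors, library totals, other filters, all libraries in one fit, a replicate block, each library left out and other thresholds. Other steps ran in Python 3.11.15 (SciPy 1.17.1, NumPy 2.4.6, pandas 2.3.3; plots by matplotlib 3.10.9).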

Additional observations from a re-analysis of the deposited data

Results flagged for a closer look

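In the interaction test of edgeR with Benjamini-Hochberg adjustment, Tespa1 and 4 of the 98 tested genes of the 7 lists related to the COP9 signalosome responded to 5-FU differently in the 2 genotypes (4.08% of the list genes, against 5.01% of all 18696 genes tested), and 0 of the 9 CSN genes were called. The lists thus held no more called genes than the background share. Ccnf, a cullin substrate receptor, had a difference of 0.534 on the log2 scale (adjusted p = 0.0136), from a change with 5-FU of -0.01 in Tespa1+/+ and 0.51 in Tespa1-/-. The eIF3 subunit Eif3b had a difference of 0.361 (adjusted p = 0.00310), from -0.32 and 0.03. The eIF3 subunit Eif3a had a difference of 0.33 (adjusted p = 0.00972), from -0.08 and 0.24. Psmd13, a subunit of the proteasome lid, had a difference of 0.456 (adjusted p = 0.0395), from -0.29 and 0.16. Tespa1 itself had a difference of -1.05 (adjusted p = 0.00104), from 0.20 and -0.86. The Tespa1-/- libraries after 5-FU in which these genes were measured also held the neutrophil and erythroid transcripts described above, whose part in these differences was not tested.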

How the results depend on the processing

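No fold change of a CSN gene reversed direction as a called value under any alternative run. Of 630 refitted values, 612 stayed on their side of the threshold, 10 lost the call and 8 gained it. The sign turned in 28 of the 612, all of values not called in either fit and at most 0.129 in size on the log2 scale at first (Gps1, Cops5, Cops6, Cops7a, Cops7b and Cops8). Of the 9 genes, 0 in place of 1 were called between untreated genotypes with the study's thresholds, with a fold above 1.5 added, and with the replicate block, and 0 to 1 with each library left out. Between genotypes after 5-FU, 1 in place of 0 was called by DESeq2, with library totals, with at least 10 counts in every library and with all 12 libraries in one fit, and 0 to 1 with each library left out. With 5-FU in Tespa1+/+, 1 in place of 0 was called by DESeq2, with at least 10 counts and with all 12 libraries, and 0 throughout with libraries left out. With 5-FU in Tespa1-/-, 0 in place of 1 were called with the study's thresholds and with a fold above 1.5 added, and 0 to 1 with each library left out. The cause was not tested. Same-numbered libraries did not deviate together over the tested genes (correlations from -0.057 to 0.047). No pairing by number was seen, but a correlation over so many genes cannot exclude one that touches few of them. Under the block the calls were 0, 0, 0, 1 and 0 over the 5 comparisons.

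Calls over all genes moved by over 1.5 times in these cases. The untreated count was 892, against 454 with the block, 428 with a fold above 1.5 added, 1427 by DESeq2 and 338 to 808 with libraries left out. After 5-FU it was 2261, against 1204 with that fold. With 5-FU it was 1352 in Tespa1+/+, against 753, 2062 by DESeq2, 2113 with all 12 libraries and 783 to 1102 with libraries left out, and 3336 in Tespa1-/-, against 1735. For the interaction it was 936, against 601, 1535 by DESeq2, 1941 with the study's thresholds and 573 to 862 with libraries left out. With union or longest-transcript lengths, 4 and 6 of the 9 CSN genes kept their place by level. Counts were lowest for Cops7b (205 to 440 per library), so its values carry the most counting error of the 9.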
